A study of Homo sapiens with 18 samples.

Results

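The nuclear genes for subunits of the mitochondrial respiratory chain were followed in H295R, a cell line that was established from an adrenocortical carcinoma and still produces steroids. They were chosen by symbol alone: every probe set with exactly 1 symbol for a subunit of complexes I to V or for cytochrome c, without assembly factors and pseudogenes. This gave 87 probe sets for 80 genes, out of 19460 probe sets with 1 symbol for 18417 genes. Complex I had 37 probe sets, complex II 5, complex III 8, complex IV 18, the ATP synthase (complex V) 18 and cytochrome c 1. The 13 subunits encoded by mitochondrial DNA were not analysed here.

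The 2 stable lines compared were GRα cells, carrying the vector pcDNA4_GRα for the hormone-binding form of the glucocorticoid receptor, and control cells carrying the empty pcDNA4 vector. Expression from the vector was not inducible, and the control cells keep the receptor gene of H295R itself. Each line received dexamethasone at 100 nM, a synthetic glucocorticoid, RU486 at 100 nM, which binds the same receptor mostly as an antagonist, or the ethanol vehicle, for 6 h after 24 h without serum. The groups were GRα with dexamethasone, GRα with RU486, GRα with vehicle, control with dexamethasone, control with RU486 and control with vehicle. Each had 3 arrays, except that GRα with RU486 had 2, because the third failed quality control according to its label. With 1 line for each vector, and no statement on whether a line is 1 clone, the transgene and any other difference between the lines cannot be told apart.

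The respiratory chain is the set of protein complexes in the inner mitochondrial membrane that passes electrons from NADH and succinate to oxygen and uses the proton gradient this builds to make ATP. Complex I takes electrons from NADH and complex II from succinate, ubiquinone carries them to complex III, cytochrome c carries them on to complex IV, and complex V is the ATP synthase. Most subunits are encoded in the nucleus and imported, and each complex is assembled from many of them. In adrenocortical cells the same organelle also holds the first and last steps of steroid synthesis, so that respiration and steroid hydroxylation share a membrane and a supply of reducing power.

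Values are log2 intensities after RMA, and a difference of 1 is a 2-fold change. Pairs of arrays from one line had correlations of 0.986 to 0.997 over all probe sets, and pairs from different lines 0.972 to 0.977. The array of GRα vehicle replicate B stood apart, with a mean correlation of 0.988 with its own line, against 0.993 to 0.997 for the other arrays. NR3C1, the receptor gene itself, was higher in GRα than in control cells by 0.59 in vehicle, 0.71 under dexamethasone and 0.61 under RU486. ZBTB16, a gene that glucocorticoids are known to induce, averaged 8.78 ± 0.08 with dexamethasone in GRα cells, against 6.29 ± 0.04 with vehicle (SD, n = 3 each). Of 12 markers of adrenocortical cells listed for a check of the cell type, 10 were measured, and the steroidogenic enzymes CYP11A1 and CYP17A1 lay at the 96.7th and 93.2nd percentile of all probe sets. The receptor for corticotropin, MC2R, lay at the 23rd and aldosterone synthase, CYP11B2, at the 21st, although intensities of different probe sets compare only roughly. Differences were tested with limma across all 19460 probe sets, and a probe set was called where its Benjamini-Hochberg adjusted p was under 0.05.

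The first question was whether the chain differs between the lines, asked separately in each treatment. In vehicle, 9 of the 87 probe sets were higher in GRα cells and 20 were lower, which is 10.3% and 23%, against 14.9% and 18.1% of all probe sets. Under dexamethasone 11 were higher and 21 lower, 12.6% and 24.1%, against 15.8% and 17.3% of all. With RU486 11 were higher and 12 lower, 12.6% and 13.8%, against 13.1% and 15.9% of all. The lines differ at 29% to 33.1% of all probe sets by this rule, and the chain's own shares were 33.3%, 36.8% and 26.4% in vehicle, dexamethasone and RU486. The median difference of the 87 probe sets was -0.09 in vehicle, -0.05 under dexamethasone and -0.003 with RU486, beside 0.01, -0.02 and -0.01 over all probe sets. Without the control vehicle array A the count in vehicle came to 19 in place of 29, and without GRα vehicle B it came to 33. Of these, 8 were higher and 11 lower without control vehicle A, and 7 higher and 26 lower without GRα vehicle B. With RU486, leaving out single arrays gave 6 to 15 higher and 7 to 15 lower. There, 6 were higher and 12 lower without GRα RU486 C, and 14 higher and 7 lower without GRα RU486 B, while 7 were higher without any one of the 3 control RU486 arrays. The median with RU486 was -0.06 without GRα RU486 C and 0.05 without B, so its sign rests on which of these arrays is kept.

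The 3 comparisons of the lines share no arrays. In all 3 of them 6 probe sets were higher in GRα cells and 10 were lower, 6.9% and 11.5% of the members, against 10.1% and 12% of all probe sets. The 10 lower ones stand for 9 genes, since SDHC has 2 probe sets. At least 1 comparison called 40 of the 87, or 46%, against 43.5% of all, and 47 were called in none, 54%, against 56.5%. No member was called higher in one treatment and lower in another. The members higher in every treatment were 4 subunits of complex I (NDUFB6, NDUFS1, NDUFB3 and NDUFA9), 1 of complex III (UQCRQ) and 1 of complex IV (COX5A). Those lower in every treatment were 3 of complex I (NDUFV3, NDUFA3 and NDUFB11), both measured probe sets of SDHC and that of SDHA in complex II, UQCR10 in complex III, and ATP5PO, ATP5PF and ATP5F1D of the ATP synthase. Without GRα vehicle B the counts in all 3 were 7 higher and 14 lower.

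**Figure D1:**
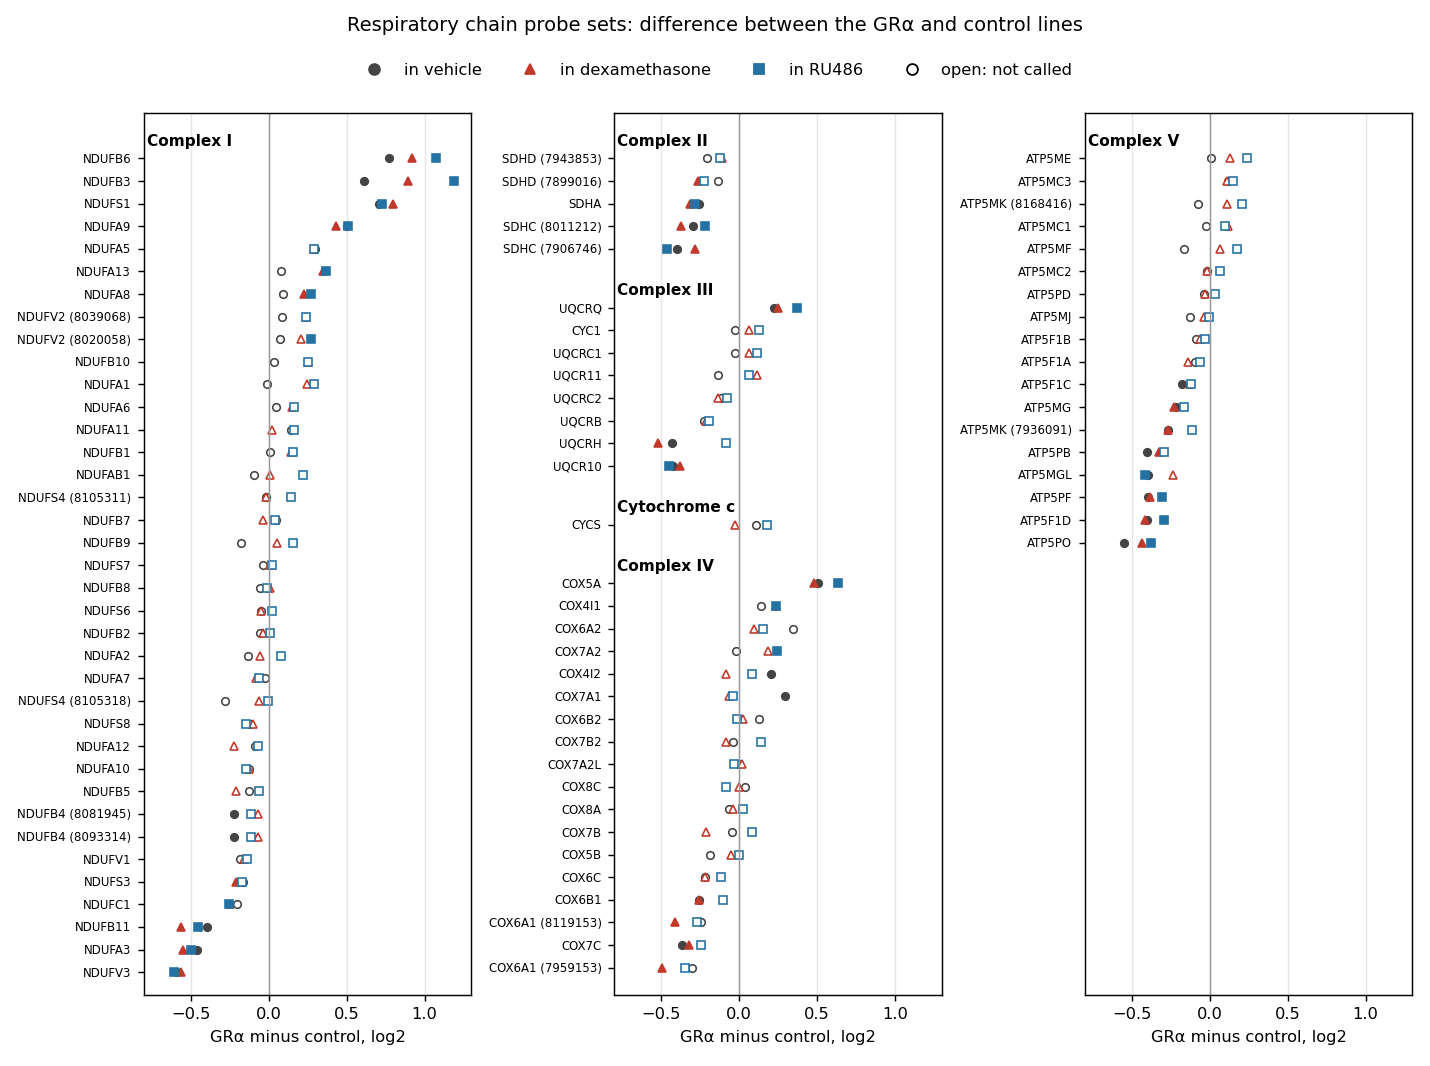
Difference between the lines (GRα minus control, log2) for each of the 87 probe sets, grouped by complex, with 1 symbol for each treatment and filled where the adjusted p was under 0.05. Complex I holds both the largest positive differences (NDUFB3 and NDUFB6, up to 1.19) and some of the largest negative ones (NDUFV3, -0.56 to -0.61), while all 5 probe sets of complex II lie to the left of 0.

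The arrays themselves were also compared without the fit. These are the same arrays that gave the calls, so the comparison is not independent of them. All 8 GRα arrays lay above all 9 control arrays for 6 members, 6.9%, against 9.96% of all probe sets, and these were the same 6 that the fit called higher in every treatment. All 8 lay below all 9 for 10 members, 11.5%, against 12.2% of all. These 10 included ATP5F1C and COX7C, which the fit called lower in only some treatments, and left out NDUFB11 and SDHA, whose GRα vehicle B array (9.13 and 10.85) lay among the control values.

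NDUFB6 and NDUFB3 are accessory subunits in the membrane arm of complex I, the part that pumps protons. In vehicle, NDUFB6 read 8.61, 8.70 and 8.99 in GRα cells, against 8.25, 7.92 and 7.83 in control cells. Under dexamethasone the values were 8.91, 9.07 and 8.86 in GRα cells and 8.13, 7.99 and 7.97 in control cells. With RU486 they were 8.93 and 9.24 in GRα cells and 8.09, 7.99 and 7.95 in control cells. The lowest of the 8 GRα arrays read 8.61 and the highest of the 9 control arrays 8.25, so the lines did not overlap. The difference was 0.77, 0.92 and 1.07 in vehicle, dexamethasone and RU486 in that order (SE 0.12, 0.12 and 0.13; limma, adjusted p 4.7e-05, 6e-06 and 4.67e-06). These are folds of 1.70, 1.89 and 2.10.

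The vehicle arrays of NDUFB3 read 6.83, 6.67 and 7.36 in GRα cells and 6.48, 6.28 and 6.26 in control cells. Its dexamethasone arrays read 7.09, 7.39 and 7.28 in GRα cells and 6.38, 6.31 and 6.39 in control cells. Its RU486 arrays read 7.40 and 7.50 in GRα cells and 6.28, 6.28 and 6.22 in control cells. The GRα values ran from 6.67 to 7.50, with vehicle A and B at the low end, and still all exceeded the highest control value of 6.48. The difference was 0.61, 0.89 and 1.19 for NDUFB3 in the 3 treatments, with adjusted p of 0.00106, 2.51e-05 and 4.25e-06 by limma. That of RU486, 2.28-fold, was the largest of any member in any comparison of the lines.

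NDUFS1 is the largest iron-sulfur subunit of complex I and sits in the arm that accepts electrons from NADH. NDUFS1 stood at 10.16, 9.93 and 10.07 in GRα and 9.36, 9.30 and 9.39 in control cells with vehicle. It stood at 10.05, 10.12 and 10.13 in GRα and 9.38, 9.26 and 9.26 in control cells with dexamethasone. For RU486 the levels were 10.07 and 10.07 in GRα and 9.34, 9.31 and 9.38 in control cells. Every GRα array read at least 9.93 and no control array more than 9.39. The difference of NDUFS1 was 0.71, 0.79 and 0.73, and its adjusted p of 1.45e-07 in vehicle and 3.37e-08 under dexamethasone were the lowest of any member there. NDUFA9, an accessory subunit near the ubiquinone site, was higher by 0.50, 0.43 and 0.51 (adjusted p 2.18e-05, 0.00011 and 7.31e-05), with values of 9.46 to 9.71 in GRα and 9.02 to 9.20 in control arrays.

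The promoters of NDUFB3 and NDUFS1, both on chromosome 2 and both higher in every treatment, are shown so that their start sites can be compared. Each runs from 250 bases before to 50 after the gene's start in RefSeq (GRCh38.p14), 5′ to 3′ on the gene's strand. Capitals mark matches on either strand to the core of the nuclear respiratory factor NRF1 (GCATGCG), the ETS motif read by GABPA (CCGGAAG) or the YY1 motif (AAGATGGCG), 3 motifs known from promoters of respiratory genes.
NDUFB3 promoter, chr2:201071751-201072050, plus strand: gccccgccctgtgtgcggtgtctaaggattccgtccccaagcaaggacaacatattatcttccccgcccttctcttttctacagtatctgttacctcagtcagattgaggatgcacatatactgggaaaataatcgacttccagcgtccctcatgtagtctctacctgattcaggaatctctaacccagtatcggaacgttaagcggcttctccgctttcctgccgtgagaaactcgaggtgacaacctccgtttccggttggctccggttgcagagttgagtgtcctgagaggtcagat
NDUFS1 promoter, chr2:206159395-206159694, minus strand: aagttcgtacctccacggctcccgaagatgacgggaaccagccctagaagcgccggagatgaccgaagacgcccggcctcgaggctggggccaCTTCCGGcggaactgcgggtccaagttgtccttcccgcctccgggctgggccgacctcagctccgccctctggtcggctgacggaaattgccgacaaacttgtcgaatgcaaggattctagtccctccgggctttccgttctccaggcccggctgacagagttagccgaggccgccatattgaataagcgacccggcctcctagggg
NDUFB3 held no match, and NDUFS1 held 1 ETS match, read on the opposite strand.

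Other complex I members passed in only some treatments. NDUFA13, known also as GRIM-19, was called higher under dexamethasone and RU486 (0.35 and 0.37, adjusted p 0.00304 and 0.00566) and not in vehicle (0.08, adjusted p 0.493). NDUFA5 was called in vehicle and under dexamethasone (0.29 in each), and NDUFA8 under dexamethasone and RU486 (0.23 and 0.27). Both probe sets of NDUFV2, an iron-sulfur subunit beside the NADH site, differed by 0.20 to 0.27 in those 2 treatments, and each passed in 1 of them. A difference that passes in one treatment and not in another is not thereby shown to differ between them, and the tests of that for each ligand against vehicle, given further on, called no member.

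NDUFV3, an accessory subunit of the same NADH-binding module, went the other way. In vehicle, NDUFV3 read 8.62, 8.67 and 8.72 in GRα cells, against 9.18, 9.31 and 9.29 in control cells. Under dexamethasone the values were 8.67, 8.86 and 8.56 in GRα cells and 9.27, 9.27 and 9.24 in control cells. With RU486 they were 8.62 and 8.75 in GRα cells and 9.32, 9.22 and 9.33 in control cells. No GRα array exceeded 8.86 and no control array was below 9.18. The difference of NDUFV3 was -0.59, -0.56 and -0.61 (SE 0.07, 0.07 and 0.08), with adjusted p of 6.3e-06, 1.06e-05 and 1.87e-05 by limma.

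NDUFA3, a small subunit of the membrane arm, was also lower, with differences of -0.46, -0.55 and -0.49 and values of 8.55 to 8.93 in GRα and 9.11 to 9.34 in control arrays. NDUFB11, a subunit of the membrane arm encoded on the X chromosome, differed by -0.40, -0.56 and -0.45, with adjusted p of 0.00136, 4.57e-05 and 0.00131. The vehicle arrays of NDUFB11 read 8.75, 9.13 and 8.83 in GRα cells and 9.28, 9.35 and 9.28 in control cells. Its dexamethasone arrays read 8.75, 8.68 and 8.70 in GRα cells and 9.28, 9.20 and 9.34 in control cells. Its RU486 arrays read 8.77 and 8.77 in GRα cells and 9.28, 9.10 and 9.30 in control cells. GRα vehicle B alone (9.13) reached the control range, and the other 7 GRα arrays lay at 8.68 to 8.83. NDUFC1 passed under dexamethasone and RU486 (-0.25 and -0.26), NDUFS3 under dexamethasone (-0.21) and NDUFB4 in vehicle (-0.22). The 2 probe sets of NDUFB4 hold identical values on all arrays and are 1 measurement. The 20 members called lower in vehicle are therefore 19 distinct measurements, and the 40 called in at least 1 comparison are 39. Of the 37 complex I probe sets, 21 passed in no comparison of the lines, as did 56.5% of all probe sets.

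**Figure D2:**
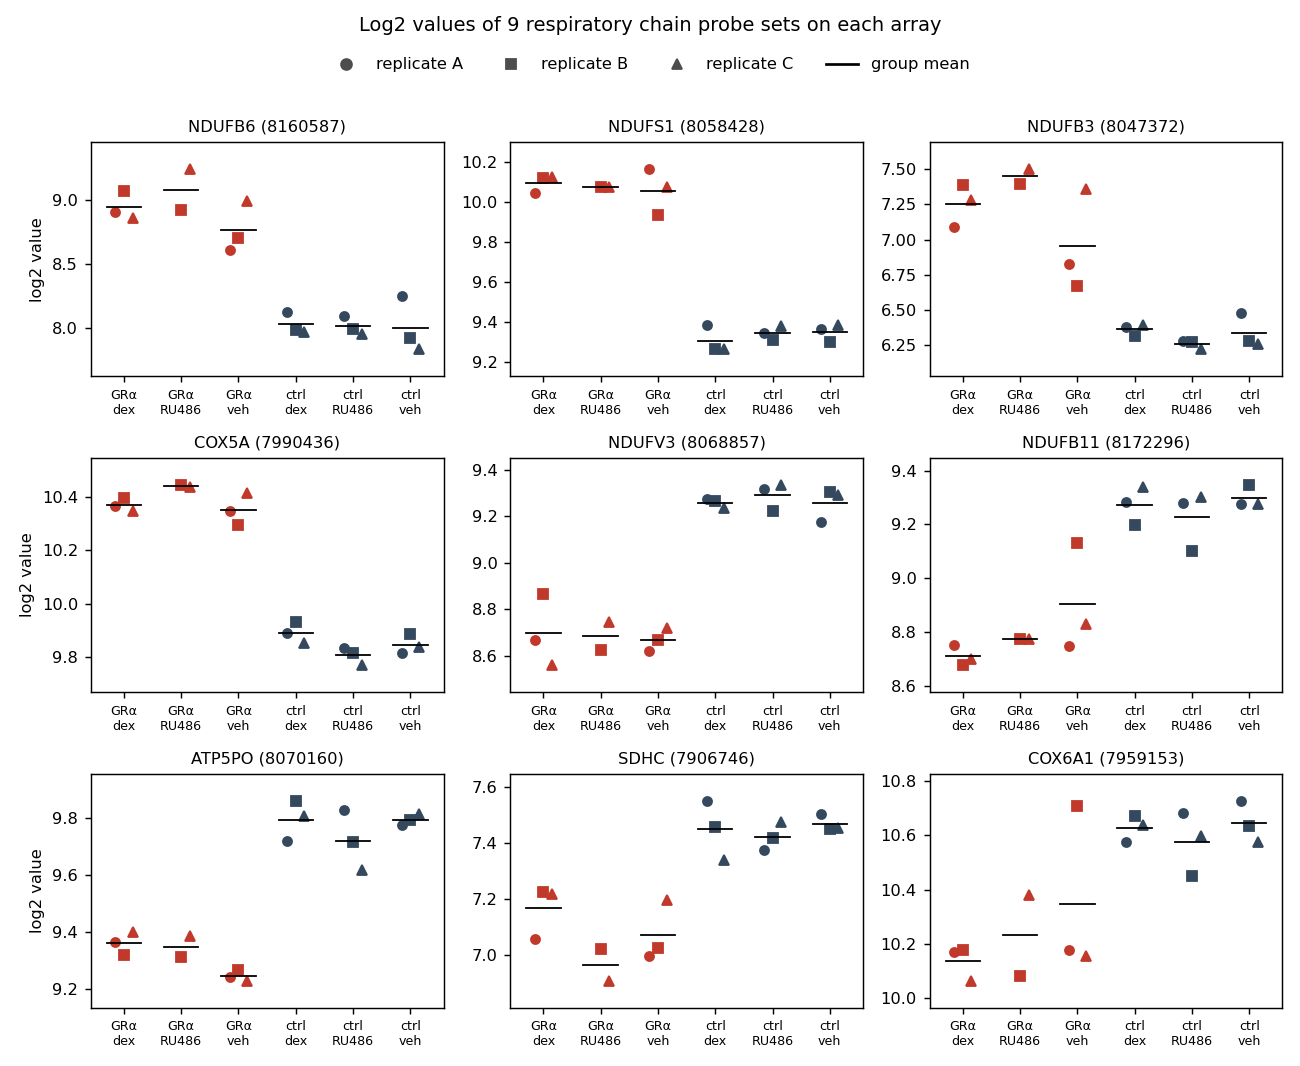
Log2 values on each array of 9 probe sets named in the text, with GRα groups to the left of control groups, a symbol shape for each replicate letter and a bar at the group mean. For NDUFB6, NDUFS1, NDUFB3, COX5A, NDUFV3, ATP5PO and SDHC the lines do not overlap, while for NDUFB11 and COX6A1 the square of GRα vehicle B lies at or near the control values.

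Complex II, the succinate dehydrogenase that also serves the citric acid cycle, was lower in GRα cells for all 5 probe sets with 1 symbol, with differences of -0.46 to -0.11 over the 3 treatments, of which all 3 passed for SDHA and both SDHC probe sets. SDHC and SDHD are its membrane anchors, which bind ubiquinone, and SDHA is the flavoprotein that oxidises succinate. SDHC (probe set 7906746) stood at 7.0, 7.02 and 7.19 in GRα and 7.50, 7.45 and 7.45 in control cells with vehicle. It stood at 7.06, 7.23 and 7.22 in GRα and 7.55, 7.46 and 7.34 in control cells with dexamethasone. For RU486 the levels were 7.02 and 6.91 in GRα and 7.38, 7.42 and 7.48 in control cells. The highest GRα value was 7.23 and the lowest control value 7.34. This probe set differed by -0.40, -0.28 and -0.46 and the second of SDHC, 8011212, by -0.30, -0.37 and -0.22, with adjusted p of 0.000387, 0.00596 and 0.000329 for the first and 0.00112, 0.000132 and 0.0242 for the second. Over the 17 arrays the 2 probe sets correlated at 0.87.

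SDHA differed by -0.25, -0.31 and -0.28 (adjusted p 0.00798, 0.00166 and 0.00979). In vehicle, SDHA read 10.57, 10.85 and 10.61 in GRα cells, against 10.97, 10.95 and 10.87 in control cells. Under dexamethasone the values were 10.51, 10.52 and 10.56 in GRα cells and 10.84, 10.86 and 10.84 in control cells. With RU486 they were 10.60 and 10.64 in GRα cells and 10.95, 10.89 and 10.87 in control cells. Only GRα vehicle B (10.85) reached the control range of 10.84 to 10.97. For SDHD, 1 probe set was called lower under dexamethasone (-0.26, adjusted p 0.0244) and the second in no treatment (-0.11 to -0.21). A pair of further probe sets, each shared by SDHA and its pseudogenes SDHAP1, SDHAP2 and SDHAP3, differed by -0.19 and -0.15 in vehicle and were called there (adjusted p 0.0272 and 0.0401). Under dexamethasone they differed by 0.04 and -0.05 (adjusted p 0.689 and 0.553) and with RU486 by -0.11 and -0.15 (0.263 and 0.0823), and neither was called. SDHB, the iron-sulfur subunit, had no probe set with that symbol alone and was not analysed here.

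In complex III, UQCRQ and UQCR10 are small subunits around the catalytic core. UQCRQ was higher in GRα cells by 0.23, 0.25 and 0.37 (adjusted p 0.00785, 0.00372 and 0.000371), with values of 9.57 to 9.75 in GRα and 9.27 to 9.44 in control arrays. UQCR10 was lower, with differences of -0.42, -0.38 and -0.45 (adjusted p 0.000229, 0.000579 and 0.000419) and values of 9.44 to 9.74 in GRα and 9.90 to 10.05 in control arrays. UQCRH, the hinge protein that lies beside cytochrome c1, was called lower in vehicle (-0.43) and under dexamethasone (-0.52) and not with RU486 (-0.09, adjusted p 0.541). The vehicle arrays of UQCRH read 7.55, 7.69 and 7.56 in GRα cells and 8.04, 8.04 and 8.0 in control cells. Its dexamethasone arrays read 7.55, 7.49 and 7.47 in GRα cells and 7.88, 8.12 and 8.07 in control cells. Its RU486 arrays read 7.61 and 7.86 in GRα cells and 7.92, 7.77 and 7.77 in control cells. With RU486, GRα replicate C (7.86) lay within the control range of 7.77 to 7.92. UQCRH has a near-identical copy, UQCRHL, whose RNA its probes may also read. A probe set shared by UQCRH, UQCRHL and GNA13 differed by -0.14, -0.05 and 0.08 in vehicle, dexamethasone and RU486 and was not called (adjusted p 0.29, 0.733 and 0.635). The core proteins UQCRC1 and UQCRC2 and cytochrome c1 itself (CYC1, -0.03, 0.06 and 0.13) passed in no treatment, and neither did cytochrome c, CYCS (0.11, -0.03 and 0.18).

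COX5A is the one subunit of complex IV that passed in all 3 treatments. COX5A stood at 10.35, 10.29 and 10.41 in GRα and 9.81, 9.89 and 9.84 in control cells with vehicle. It stood at 10.37, 10.39 and 10.35 in GRα and 9.89, 9.93 and 9.85 in control cells with dexamethasone. For RU486 the levels were 10.44 and 10.44 in GRα and 9.83, 9.82 and 9.77 in control cells. The lowest GRα array read 10.29 and the highest control array 9.93. The difference was 0.50, 0.48 and 0.63, with adjusted p of 1.15e-06, 1.99e-06 and 3.6e-07, and its fold was 1.42, 1.39 and 1.55. COX4I1, the common form of the subunit next to it in the complex, was called higher under dexamethasone and RU486 (0.24 in each). COX6B1 was called lower in vehicle and under dexamethasone (-0.25 in each), and so was COX7C (-0.36 and -0.32).

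Several complex IV subunits exist as pairs of genes with different tissue ranges. COX6A1, the widely expressed form, was called lower under dexamethasone by both of its probe sets (-0.49 and -0.41, adjusted p 0.00357 and 0.00432). In vehicle, COX6A1 (probe set 7959153) read 10.18, 10.71 and 10.15 in GRα cells, against 10.73, 10.63 and 10.58 in control cells. Under dexamethasone the values were 10.17, 10.18 and 10.06 in GRα cells and 10.58, 10.67 and 10.64 in control cells. With RU486 they were 10.08 and 10.38 in GRα cells and 10.68, 10.45 and 10.60 in control cells. GRα vehicle B read 10.71, within the control values, and the other GRα vehicle arrays 10.18 and 10.15. COX6A2, its muscle form, passed in no treatment (0.35, 0.10 and 0.15). COX7A2, the form of liver and most tissues, was called higher with RU486 (0.24, adjusted p 0.0409), and COX7A2L, which takes part in joining complexes III and IV, in none (0.00, 0.02 and -0.03).

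The muscle form COX7A1 and the lung form COX4I2 were called higher in vehicle only (0.29 and 0.20, adjusted p 0.022 and 0.0338). Both lie in the dimmest 25% of probe sets, as do the testis forms COX6B2, COX7B2 and COX8C. For COX7A1 the GRα vehicle arrays read 5.73, 5.97 and 5.54, against 5.48, 5.42 and 5.46 in control vehicle, with GRα vehicle B the highest. NDUFA4 and NDUFA4L2, another such pair, were not analysed here. COX6B2, COX7B, COX7B2, COX8A and COX8C passed in no treatment, with differences of -0.21 to 0.14.

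In the ATP synthase, with 18 probe sets, no member was called higher in GRα cells. Lower were 8 in vehicle, 6 under dexamethasone and 4 with RU486. Of all probe sets 18.1%, 17.3% and 15.9% were called lower in these treatments, and 14.9%, 15.8% and 13.1% higher. ATP5PO, the subunit that holds the catalytic head to the outer stalk, gave the largest difference. The vehicle arrays of ATP5PO read 9.24, 9.27 and 9.23 in GRα cells and 9.78, 9.79 and 9.81 in control cells. Its dexamethasone arrays read 9.37, 9.32 and 9.40 in GRα cells and 9.72, 9.86 and 9.81 in control cells. Its RU486 arrays read 9.31 and 9.38 in GRα cells and 9.83, 9.72 and 9.62 in control cells. Every GRα array read 9.40 or less and every control array 9.62 or more. The difference of ATP5PO was -0.55, -0.43 and -0.37 (SE 0.06, 0.06 and 0.07), with adjusted p of 2.01e-06, 2.96e-05 and 0.000497.

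ATP5PF, another part of the outer stalk, differed by -0.39, -0.38 and -0.30 (adjusted p 0.00057, 0.000702 and 0.0117), with values of 8.67 to 8.90 in GRα and 8.96 to 9.22 in control arrays. ATP5F1D, in the rotating central stalk, differed by -0.40, -0.41 and -0.30 (adjusted p 0.000256, 0.00019 and 0.00915), with values of 8.74 to 8.98 in GRα and 9.13 to 9.37 in control arrays. ATP5PB, the long helix of the outer stalk, passed in vehicle and under dexamethasone (-0.40 and -0.32) and not with RU486 (-0.29, adjusted p 0.0959). ATP5MG passed in the same pair of treatments (-0.21 and -0.23), and ATP5F1C, the shaft of the rotor, in vehicle (-0.18). The catalytic subunits ATP5F1A and ATP5F1B, and the 3 genes for the membrane ring, ATP5MC1, ATP5MC2 and ATP5MC3, passed in none. ATP5MGL, a gene closely related to ATP5MG, passed in vehicle and with RU486 (-0.39 and -0.41). For ATP5MK the 2 probe sets gave different answers: 7936091 was lower in vehicle and under dexamethasone (-0.27 in each) and 8168416 was not called (-0.08, 0.11 and 0.21). Their correlation over arrays was 0.08.

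The promoters of ATP5PF and ATP5PO, both on chromosome 21 and both lower in every treatment, are shown in the same way.
ATP5PF promoter, chr21:25735005-25735304, minus strand: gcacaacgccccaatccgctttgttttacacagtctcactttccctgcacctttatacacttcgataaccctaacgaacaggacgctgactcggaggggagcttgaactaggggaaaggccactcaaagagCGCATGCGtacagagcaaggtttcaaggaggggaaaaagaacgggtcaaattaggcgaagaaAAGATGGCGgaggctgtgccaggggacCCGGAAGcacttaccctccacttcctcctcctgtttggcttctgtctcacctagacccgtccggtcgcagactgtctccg
ATP5PO promoter, chr21:33915755-33916054, minus strand: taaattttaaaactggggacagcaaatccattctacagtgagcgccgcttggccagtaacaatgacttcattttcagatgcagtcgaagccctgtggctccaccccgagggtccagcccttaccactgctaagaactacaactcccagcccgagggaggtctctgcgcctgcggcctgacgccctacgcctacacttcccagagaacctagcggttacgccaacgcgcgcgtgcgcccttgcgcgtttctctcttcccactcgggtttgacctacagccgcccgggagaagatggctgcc
ATP5PF held all 3 motifs, its NRF1 core read on both strands over overlapping bases, and ATP5PO held none.

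The table had a promoter for 67 of the 80 genes. The NRF1 core lay in 13 of them, 19.4%, against 4.13% of all 27305 promoters and 5.15% of the 13770 promoters of protein-coding genes measured on the arrays. The ETS motif lay in 19, 28.4%, against 10.7% of all and 14.8% of those of measured genes. The YY1 motif lay in 7, 10.4%, against 1.85% and 2.95%. Of the 6 members higher in every treatment none held the NRF1 core, 2 the ETS motif (NDUFS1 and UQCRQ) and 1 the YY1 motif (NDUFA9). Among the 7 genes lower in every treatment that had a promoter, ATP5PF alone held any of the 3. The glucocorticoid response element, searched as GNACA, any 3 bases and TGTNC, was in 0 of the 67 windows and in 0.388% of all and 0.247% of those of measured genes. A match describes the letters in these windows and is not a site shown to be bound.

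Where each gene lies on its chromosome was examined next, with the order of genes taken from RefSeq (GRCh38.p14). For each of the 80 genes the 10 measured protein-coding genes on either side were read in the same comparison. NDUFB3 and NDUFS1 both lie on chromosome 2, and 16, 16 and 17 of the 20 neighbours of NDUFB3 were called higher in GRα cells in vehicle, dexamethasone and RU486, with medians of 0.66, 0.68 and 0.67. Of the neighbours of NDUFS1, 14 of 20 were called higher in each treatment, with medians of 0.57, 0.56 and 0.52. No neighbour of either gene was called lower. Over the whole of chromosome 2, 19.3% of genes were called higher in vehicle.

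COX5A, on chromosome 15, had 17, 16 and 16 of 20 neighbours called higher, with medians of 0.56, 0.63 and 0.60. On this chromosome 60.3% of 489 genes were called higher in vehicle and 3.27% lower. NDUFB6, on chromosome 9, had 11, 10 and 11 neighbours called higher, and NDUFA9, on chromosome 12, had 7, 9 and 9. For NDUFB6 the neighbours' medians were 0.29, 0.24 and 0.28, below its own differences of 0.77, 0.92 and 1.07. UQCRQ, on chromosome 5, had 2 or 3 neighbours called higher and medians of 0.03 to 0.05.

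All 3 members on chromosome 21, NDUFV3, ATP5PO and ATP5PF, were lower in GRα cells in every treatment, and 43.9% to 46.9% of the 196 genes measured on it were called lower. Of the 20 neighbours of ATP5PO, 15, 15 and 16 were called lower, with medians of -0.44, -0.39 and -0.41. ATP5PF had 11, 11 and 10 neighbours called lower and NDUFV3 10, 11 and 10. Around the other members that were lower in every treatment the neighbours' medians were nearer to 0. They ran from -0.14 to -0.11 beside NDUFA3, from -0.03 to 0.01 beside NDUFB11, from -0.14 to -0.01 beside UQCR10, from -0.08 to -0.04 beside ATP5F1D, from -0.11 to -0.02 beside SDHA and from -0.07 to 0.00 beside SDHC. For SDHA only 13 neighbours were measured.

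**Figure D3:**
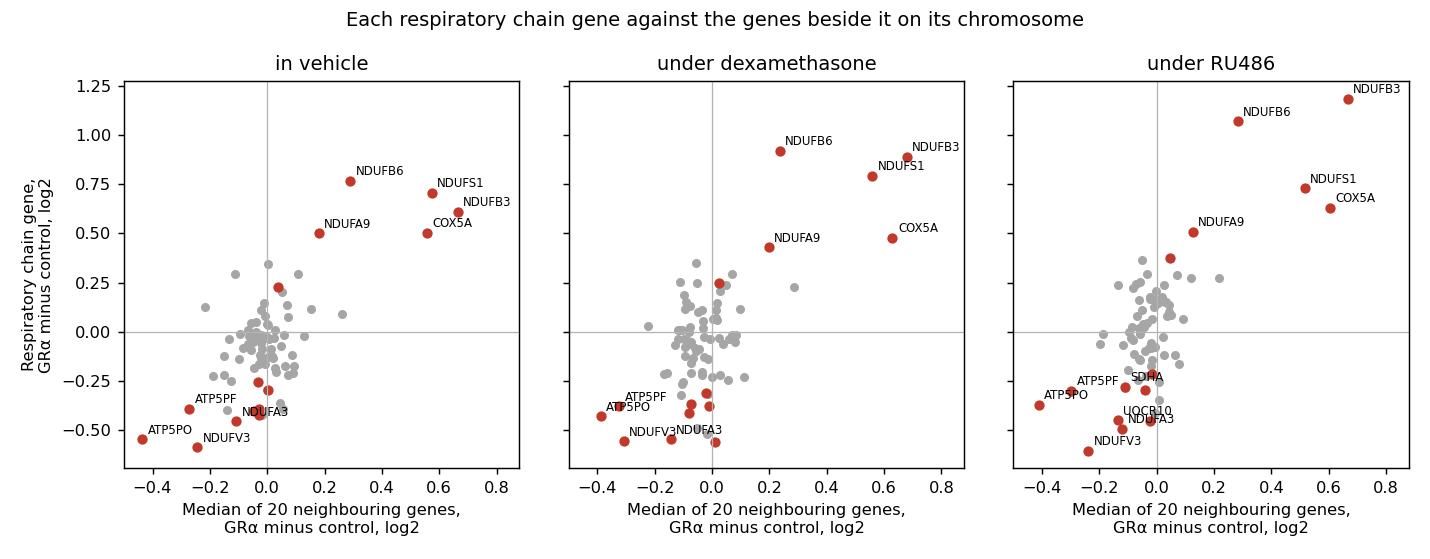
Difference between the lines (GRα minus control, log2) of each of the 80 genes against the median difference of its 20 neighbouring measured genes, in vehicle, dexamethasone and RU486. Red points are the genes called in all 3 treatments, with names where the neighbours' median is over 0.1 in size: NDUFB3, NDUFS1 and COX5A lie beside genes that are higher too (medians 0.52 to 0.68), and ATP5PO, ATP5PF and NDUFV3 beside genes that are lower (-0.24 to -0.44).

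Over the 80 genes the difference of a member and the median of its neighbours correlated at r = 0.68 in vehicle, 0.66 under dexamethasone and 0.73 with RU486 (Spearman 0.38, 0.38 and 0.47). Over all 16902 protein-coding genes r was 0.38, 0.39 and 0.39 (Spearman 0.28 in each). Genes that lie side by side share neighbours and all values come from the same 17 arrays, so these are descriptions of the arrays. Of the called members, 20 of 26 in vehicle, 24 of 28 under dexamethasone and 19 of 22 with RU486 had the sign of their neighbours' median. For all called genes that share was 65.9%, 67.9% and 69.6%. The part of position on the chromosome in the members' differences was not tested.

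The second question was whether a ligand of the receptor changes the chain within 6 h. In none of the 6 ligand comparisons was any of the 87 probe sets called by limma, in either direction. Over all probe sets dexamethasone against vehicle called 1.32% higher and 0.632% lower in GRα cells, 1.95% in all, and 0.206% and 0.0462% in control cells, 0.252% in all. RU486 against vehicle called 0% of all probe sets in either line. Dexamethasone against RU486 called 0.683% higher and 0.139% lower in GRα cells, 0.822% in all, and 0.277% and 0.0874% in control cells, 0.365% in all. The 2 comparisons with vehicle in a line share its vehicle arrays. The 95% confidence interval of a member's difference from vehicle reached at most 0.33 to either side (0.37 for RU486 in GRα cells), and the median member's 0.17 (0.19).

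**Figure D4:**
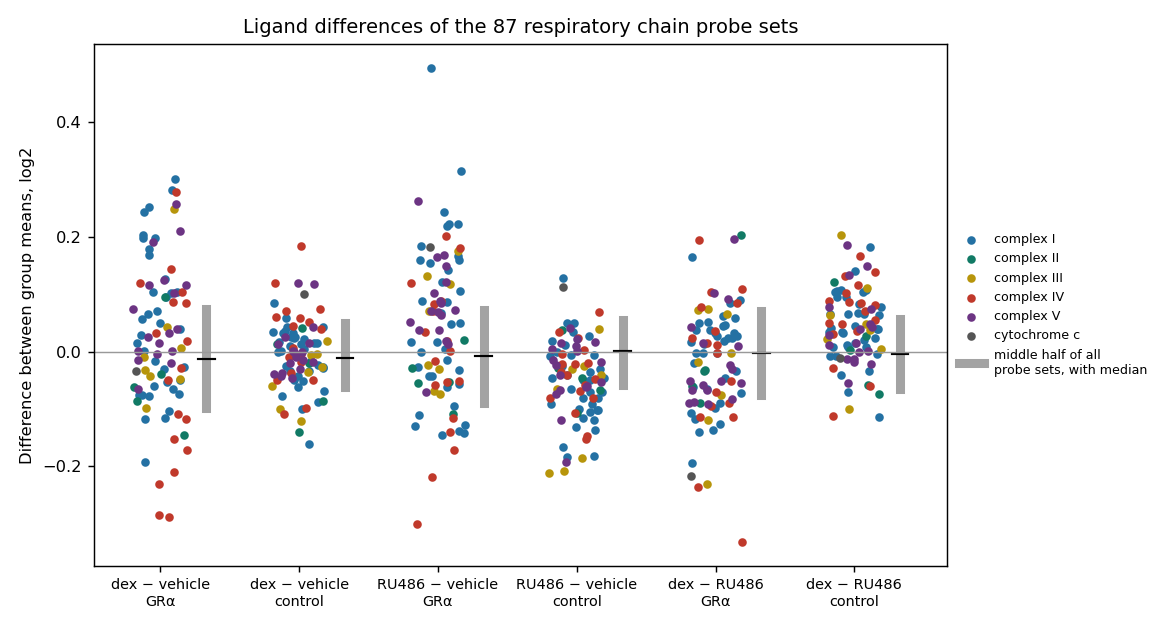
Differences (log2) of the 87 probe sets in the 6 ligand comparisons, coloured by complex, beside a bar from the 25th to the 75th percentile of all probe sets with its median. None was called. The members spread from -0.29 to 0.30 with dexamethasone and from -0.30 to 0.49 with RU486 in GRα cells, and from -0.16 to 0.18 and -0.21 to 0.13 in control cells.

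With dexamethasone in GRα cells 15 members had an unadjusted p under 0.05, 17.2%, against 15.4% of all probe sets. Of these 11 were higher, against 7.01% of all, and 4 lower, against 8.42%. With dexamethasone in control cells none did, against 4.87%. The 3 largest differences upward in GRα cells were those of NDUFB3 (0.30), NDUFA1 (0.28) and COX7A2 (0.28, adjusted p 0.077, the lowest of any member). For COX7A2 the arrays read 9.79, 9.89 and 9.73 with dexamethasone, against 9.45, 9.45 and 9.66 with vehicle. These groups did not overlap, but the share of all probe sets that separate so was not counted. The 3 largest downward were those of COX7A1 (-0.29), COX6A2 (-0.28) and COX4I2 (-0.23). For COX7A1 they read 5.43, 5.47 and 5.47 with dexamethasone, against 5.73, 5.97 and 5.54 with vehicle. None of these was called.

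A single vehicle array decides this count. Without GRα vehicle C, 6 members were called with dexamethasone in GRα cells: NDUFB3 (0.50, adjusted p 0.00604), NDUFB10 (0.37), COX7A2 (0.35), ATP5MC1 (0.34) and NDUFB9 (0.29) higher, and COX7A1 (-0.39) lower. These 6 were named after their values were seen. Over all probe sets the calls also rose, from 380 with every array to 647 without GRα vehicle C, so the rise was not confined to the chain. The vehicle arrays left in GRα cells were then A and B, and B is the array that stood apart from its line (mean correlation 0.988). Without any of the other 16 arrays no member was called. For NDUFB3 the GRα arrays read 7.09, 7.39 and 7.28 with dexamethasone, against 6.83, 6.67 and 7.36 with vehicle, where replicate C is the high one. NDUFB10 read 8.70, 8.76 and 8.64 with dexamethasone, against 8.51, 8.15 and 8.68 with vehicle. Quantile normalization once more, or an intensity trend in the variance, called COX7A2 alone.

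In control cells with dexamethasone the largest differences were 0.18 (COX8C), 0.12 (COX6C) and 0.12 (ATP5MC1) upward, and -0.16 (NDUFS4, probe set 8105318), -0.14 (SDHD, probe set 7943853) and -0.12 (CYC1) downward. The other probe set of NDUFS4 was uncorrelated with this one over the arrays (r = 0.02). With RU486 in GRα cells 6 members had an unadjusted p under 0.05, against 8.68% of all probe sets, and the lowest adjusted p was 0.476. NDUFB3 (0.49), NDUFB6 (0.32) and ATP5MK (0.26) gave the largest differences upward, and COX7A1 (-0.30), COX6B2 (-0.22) and COX6A2 (-0.17) downward. For NDUFB3 the arrays read 7.40 and 7.50 with RU486, against 6.83, 6.67 and 7.36 with vehicle. The RU486 arrays were the higher ones, with vehicle C next.

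With RU486 in control cells 5 members had an unadjusted p under 0.05, against 3.46% of all probe sets, and all 5 were lower, against 2.01%, with none higher, against 1.45%. They were UQCRC1 (-0.21), UQCRH (-0.21), ATP5MF (-0.19), CYC1 (-0.19) and NDUFA8 (-0.18). UQCRC1, UQCRH and CYC1 all belong to complex III. CYC1 read 8.75, 8.61 and 8.65 with RU486, against 8.93, 8.88 and 8.77 with vehicle, and UQCRC1 read 8.36, 8.23 and 8.34 with RU486, against 8.53, 8.63 and 8.40 with vehicle. The groups overlapped for neither gene. Both were taken from the 5 above, and how many of all probe sets separate in this way was not counted. None passed after adjustment, where the lowest adjusted p of any member was 0.999. The largest upward were NDUFA5 (0.13), CYCS (0.11) and COX8C (0.07).

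Between the ligands, dexamethasone against RU486 gave its largest differences in GRα cells for COX7B2 (-0.33, adjusted p 0.164), COX7B (-0.24) and UQCRH (-0.23) downward. Upward they were SDHC (0.20, probe set 7906746), ATP5MGL (0.20) and COX8C (0.20). In control cells they were UQCRH (0.20), ATP5MC2 (0.18) and NDUFA2 (0.18) upward, and NDUFA5 (-0.11), COX7B2 (-0.11) and UQCRB (-0.10) downward. Unadjusted p was under 0.05 for 4 members in GRα cells and 3 in control cells, against 8.81% and 5.88% of all probe sets.

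The third question was whether a ligand acts differently in the 2 lines, tested as the ligand difference in GRα cells minus that in control cells. No member was called for either ligand, against 0.0617% of all probe sets for dexamethasone and 0% for RU486, and 6 and 8 members had an unadjusted p under 0.05, against 7.47% and 4.22% of all. For dexamethasone the largest were COX7A1 (-0.36), COX4I2 (-0.29) and COX6A2 (-0.25) downward and NDUFB3 (0.28), NDUFA13 (0.27) and NDUFA1 (0.26) upward. For RU486 they were NDUFB3 (0.58), UQCRH (0.34) and ATP5MF (0.34) upward and COX7A1 (-0.34), COX6A2 (-0.19) and COX6B2 (-0.14) downward. The RU486 values were above 0 for 64 of the 87 members, with a median of 0.08, against 9488 of all 19460 probe sets, with a median of -0.004. The cytosolic ribosomal proteins, listed beside the chain for comparison, also had a median of 0.08. Within each line, the members' median for RU486 against vehicle was 0.04 in GRα cells and -0.05 in control cells. There 54 and 21 of the 87 lay above 0. Over all probe sets these medians were -0.007 and 0.0004. Of the 2 GRα RU486 arrays B read lower than C for 73 of the 87. The members' median of the difference between the lines was 0.02 without C and 0.13 without B. It was 0.05 without GRα vehicle A.

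The genes around the chain were read from lists of related functions, with 1 probe set for each gene and counted in all 3 comparisons of the lines. Over all 18417 genes 10.1% were higher in GRα cells in every treatment and 12.2% lower. The citric acid cycle, which feeds complexes I and II, had 4 of 11 measured genes higher and 5 lower. The isocitrate dehydrogenase IDH2 differed by 0.93, 0.92 and 1.05 in vehicle, dexamethasone and RU486, IDH3A by 0.75, 0.73 and 0.70, IDH3B by 0.69, 0.66 and 0.69 and OGDH by 0.41, 0.46 and 0.50. SUCLA2, a subunit of succinate-CoA ligase, differed by -0.76, -0.68 and -0.74, and CS, MDH2, SUCLG1 and IDH3G were lower as well. IDH2 and IDH3A lie on chromosome 15, as COX5A does. SUCLA2 lies on chromosome 13, where 52.1% of 280 genes were called lower in vehicle.

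Other dehydrogenases that hand electrons to ubiquinone had 3 of 8 genes higher and 2 lower. ETFA, which carries electrons from fatty acid oxidation, differed by 1.03, 1.10 and 1.12, while ETFDH, the enzyme that takes them from it, differed by -0.63, -0.73 and -0.65 and GPD2, the glycerol phosphate dehydrogenase, by -0.62, -0.79 and -0.66. ETFA and SQOR, which was also higher, lie on chromosome 15 too. Glycolysis had 8 of 16 genes lower and none higher. ALDOC, a form of aldolase, differed by -1.59, -1.73 and -1.52, PFKL, a phosphofructokinase on chromosome 21, by -0.99, -1.0 and -1.03 and LDHA, which makes lactate, by -0.66, -0.78 and -0.78. These lists were not tested as sets.

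Assembly factors of the complexes had 6 of 48 genes higher and 4 lower. NUBPL, which delivers iron-sulfur clusters to complex I, differed by 0.69, 0.80 and 0.78, UQCC5, a complex III factor, by 0.70, 0.93 and 0.85 and NDUFAF4, a complex I factor, by -0.47, -0.42 and -0.47. Regulators of mitochondrial gene expression had 1 of 14 higher and 4 lower. NRF1, the factor whose core motif was searched above, differed by 0.41, 0.46 and 0.46. GABPA, the factor of the ETS motif, lies on chromosome 21 and differed by -0.47, -0.45 and -0.49, the coactivator PPARGC1A by -0.42, -0.38 and -0.46 and TFB2M, needed to start transcription of mitochondrial DNA, by -0.81, -0.72 and -0.95.

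The mitochondrial ribosome had 4 of 73 genes higher and 7 lower, with MRPS31 at -0.89, -1.04 and -0.98 and MRPL40 at 0.51, 0.57 and 0.44. MRPS31 lies on chromosome 13, as SUCLA2 does. The cytosolic ribosomal proteins had 5 of 60 higher and 10 lower, with RPL28 at -0.71, -0.85 and -0.81 and RPS6 at 0.68, 0.69 and 0.72. Among the adenine nucleotide carriers and the ATP synthase inhibitor, 1 of 3 was lower, the carrier SLC25A5 (-0.31, -0.39 and -0.32). Of 5 genes of the steroid hydroxylase chain in mitochondria, FDX1, the ferredoxin that supplies electrons to the hydroxylases, was lower (-0.21, -0.38 and -0.22) and CYP11A1 was called in no treatment. Adrenocortical markers had 4 of 10 genes lower in every treatment and none higher in every treatment. Taken singly, the treatments had 1 of the 10 called higher in vehicle, 0 under dexamethasone and 1 with RU486. Lower in every treatment were, among others, HSD3B2, a steroid dehydrogenase (-1.59, -1.67 and -1.66), and the sulfotransferase SULT2A1 (-1.09, -1.15 and -1.04). STAR, which brings cholesterol into mitochondria, was so too (-0.91, -0.81 and -0.78). Chromaffin cell markers had 2 of 5 genes higher in GRα cells, CHGB by 2.95, 3.02 and 2.97 and CHGA by 0.54, 0.64 and 0.45, and fibroblast markers 1 of 6, COL1A1. The part of these marker differences in the differences of the respiratory chain was not tested.

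Few genes of these lists were called in a ligand comparison. HIF1A, which directs the response to low oxygen, was higher with dexamethasone in GRα cells (0.27, adjusted p 0.0247). FDX1 was higher with dexamethasone in control cells (0.38, adjusted p 0.0228). PPARGC1A was lower with dexamethasone than with RU486 in both lines (-0.34 in GRα and -0.41 in control cells, adjusted p 0.0348 and 0.00579). NR5A1, a regulator of steroidogenic genes, was higher with dexamethasone in GRα cells (0.66), and the chromaffin marker PNMT lower (-0.40). Between the ligands, 1 of 10 adrenocortical markers was called higher with dexamethasone than RU486 in GRα cells, and 1 in control cells. No gene of the citric acid cycle, of glycolysis, of the assembly factors or of either ribosome was called in a ligand comparison.

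**Figure D5:**
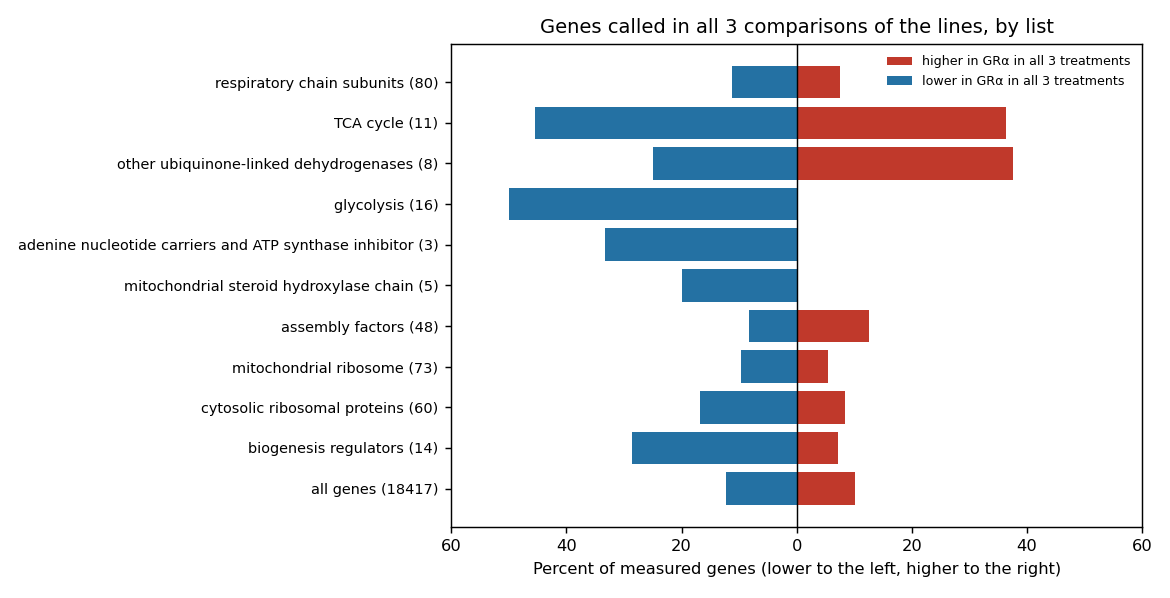
Percent of measured genes in each list called higher (right) or lower (left) in GRα than in control cells in all 3 treatments, with the number measured in parentheses and all genes at the bottom. The respiratory chain (7.5% higher, 11.2% lower) lies near all genes (10.1% and 12.2%), glycolysis has 50% lower and none higher, and the citric acid cycle has 36.4% higher and 45.5% lower.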

How the data were processed

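RNA from 18 samples was described and 17 arrays had values. The deposited values are log2 intensities per probe set, and the submitters' processing notes name RMA and limma, with no versions. The genome build is not given in the sources used here. RMA normalizes by quantiles, so it would hide a change shared by most RNAs of a group. Of 29153 probe sets, 19460 had 1 symbol, 1754 had several and 7939 had none. Symbols were updated by Entrez number for 19429 of the 19460. No further normalization or filter was applied.

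Group means of all 17 arrays were fitted with limma 3.58.1 in R 4.3.3 (lmFit, eBayes), with 11 residual degrees of freedom, over the 19460 probe sets. All 11 comparisons were adjusted separately by Benjamini-Hochberg, called at 0.05. The fit was tested on simulated data. The number of arrays limits the precision. Per the labels the arrays are biological replicates, but nothing says that each came from its own culture, so the spread behind each p-value may be partly technical. In GRα cells with RU486 the 2 remaining arrays are replicates B and C.

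The members and gene lists were chosen with earlier results of these data known. The members named were up to 10 called each way in each comparison, those called in all 3 comparisons of the lines, where fewer than 3 were called the 3 largest differences each way, and the SDH, cytochrome c and isoform genes. Other members called were added after their values were seen. Neighbours were the 10 measured protein-coding genes on each side in RefSeq. Alternatives were quantile normalization again, median centring, a filter on dim probe sets, an intensity trend, robust moderation, array weights, 1 probe set per gene, all probe sets, only the groups compared, a stricter threshold, a replicate block and leaving out each array.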

Additional observations from a re-analysis of the deposited data

How the results depend on the processing

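Counts of members called higher or lower in GRα than in control cells were 29 in vehicle, 32 under dexamethasone and 23 with RU486. They moved by over 1.5 times with an adjusted p under 0.01, to 19, 21 and 15, and in vehicle with only the groups compared, to 18. The stricter threshold calls fewer by construction, and the cause of the second was not tested. Leaving out each array gave 19 to 33 in vehicle, 23 to 37 under dexamethasone and 16 to 30 with RU486. The highest count in each came without GRα vehicle B. The lowest came without control vehicle A, control dexamethasone A and control RU486 C. With dexamethasone in GRα cells, in place of 0 members, 1 was called after quantile normalization again and 1 with an intensity trend, and leaving out arrays gave 0 to 6. The cause was not tested. In the 5 other ligand comparisons and both tests of a difference between the lines, the count was 0 under every alternative run.

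The count called in all 3 comparisons of the lines, whose alternatives were chosen after seeing the data, was 16 and ran from 13 to 21. Of 66 results for single probe sets, 47 kept their call under all alternatives run, 19 lost it under some, and 0 reversed. Among the 19 were COX4I2 in vehicle, lost in 8 of 24, and COX7A2 with RU486, lost in 7 of 25. SDHC probe set 8011212 with RU486 lost its call in 5 of 25, and SDHA in 1 of 25 both in vehicle and with RU486. Deviations of arrays with the same replicate letter had a median correlation of -0.01 over 40 pairs, against 0.01 over 80 pairs with different letters. The correlations ran from -0.26 to 0.32 for the same letter and from -0.36 to 0.29 for different letters. No pairing by letter was seen, but with so few arrays in each group this comparison cannot exclude it. With the replicate letter as a block (replicate block) the counts were 29, 31 and 21, and 0 in every ligand comparison.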

Other observations

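The pseudogene of a cytochrome bc1 subunit, UQCRBP1, differed between GRα and control cells by 0.01 in vehicle, 0.28 under dexamethasone and 0.35 with RU486. The ATP synthase pseudogene ATP5F1EP2 differed by -0.24, -0.21 and -0.03, and the divergent transcript NDUFV1-DT by -0.21, -0.11 and 0.04. None of the 3 was called in any of the 11 comparisons by limma.

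Chromosome 13 held none of the members and was lower in GRα cells for 52.1% of its 280 genes in vehicle, 51.4% under dexamethasone and 52.1% with RU486. Chromosome 9 was higher for 32.7%, 34.6% and 31.2% of 667 genes, and held NDUFB6 and NDUFA8. Chromosome 19 held 11 members, of which 1 was called higher and 3 lower in vehicle, with 5.83% of its 1236 genes higher and 27.7% lower.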
